A study of Drosophila melanogaster with 2 samples.

Results

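The Hox genes of Drosophila melanogaster lie on chromosome arm 3R in 2 clusters, the Antennapedia complex (lab, pb, Dfd, Scr and Antp) and the Bithorax complex (Ubx, abd-A and Abd-B). Peaks of Sequoia binding were taken here as belonging to these clusters when their summit lay inside a Hox gene, between Hox genes of the same cluster, or within 10 kb of the outermost ones, leaving out ftz. By that rule 59 of the 4100 peaks in the authors' conservative list were members (1.44%), with 23 in the Antennapedia complex (3R:6651427-7009228) and 36 in the Bithorax complex (3R:16646623-16982236). The same rule found 75 of 5287 peaks in the list from pooled replicates, 64 of 4069 in the list of replicate 1 and 33 of 2680 in the list of replicate 2.

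The zinc finger protein Sequoia is best known from growing axons and dendrites. Its binding was mapped by ChIP-seq in intact embryos of mixed age, between 0 and 24 h, that carry the insertion seq-GFP, in which the gene seq is fused to eGFP. Chromatin was sheared by sonication and precipitated with an antibody against GFP in 2 biological replicates of 1 group, both from the same fly line. There is therefore no contrast between conditions, every tissue and stage of embryonic life is mixed in each library, and cell type markers cannot be checked in lists of peaks. Read depth is unknown from these lists, so the number of libraries limits the precision, and all intervals given are exact 95% intervals (Poisson for densities, Clopper-Pearson for shares) that cover counting error only. Signals are those of the authors' peak caller, with no unit of their own, and serve to rank peaks within a list.

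Hox proteins are homeodomain transcription factors that give body segments their identity, and the order of the genes along the chromosome follows the order of the segments along the body. Large regulatory regions in introns and between the genes hold enhancers, insulators and Polycomb response elements, which keep each gene off or on through later development. Proteins that recruit Polycomb and Trithorax complexes to such elements in flies include Pleiohomeotic, which binds a core of GCCAT, and the GAGA factor, product of Trl, which binds GAGAG.

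The windows below show 101 bases around the summits of member peaks on which the results turn, read on the plus strand of the Drosophila genome Release 6 (dm6). The first 4 are the Hox promoter peaks other than a weak one at Abd-B, the next 8 are peaks away from Hox promoters that hold GCCAT, and the last pair holds neither motif. Capitals mark GCCAT and GAGAG on either strand, so that ATGGC and CTCTC are in capitals too.
Dfd promoter (3R:6791551-6791651): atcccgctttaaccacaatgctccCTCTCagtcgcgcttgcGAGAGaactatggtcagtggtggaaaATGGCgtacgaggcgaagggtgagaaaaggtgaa
Abd-B promoter (3R:16960354-16960454): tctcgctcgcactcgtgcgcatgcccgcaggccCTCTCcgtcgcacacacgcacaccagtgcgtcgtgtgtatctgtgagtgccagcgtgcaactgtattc
Scr promoter (3R:6850046-6850146): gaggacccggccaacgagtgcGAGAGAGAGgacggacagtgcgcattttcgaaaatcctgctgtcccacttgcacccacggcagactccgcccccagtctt
lab promoter (3R:6678648-6678748): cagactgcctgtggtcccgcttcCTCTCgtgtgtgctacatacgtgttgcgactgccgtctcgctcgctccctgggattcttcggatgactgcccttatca
Abd-B intron (3R:16940678-16940778): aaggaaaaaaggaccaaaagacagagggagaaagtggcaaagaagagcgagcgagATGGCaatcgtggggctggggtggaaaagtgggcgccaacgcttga
Abd-B intron (3R:16948734-16948834): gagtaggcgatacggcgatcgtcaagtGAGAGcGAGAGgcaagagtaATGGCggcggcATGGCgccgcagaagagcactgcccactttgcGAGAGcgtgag
abd-A intron (3R:16811851-16811951): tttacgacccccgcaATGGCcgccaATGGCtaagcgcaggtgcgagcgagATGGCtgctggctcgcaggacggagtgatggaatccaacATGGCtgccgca
abd-A intron (3R:16815825-16815925): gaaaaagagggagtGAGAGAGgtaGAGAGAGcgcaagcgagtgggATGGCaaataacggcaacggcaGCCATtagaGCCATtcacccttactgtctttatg
Ubx intron (3R:16683037-16683137): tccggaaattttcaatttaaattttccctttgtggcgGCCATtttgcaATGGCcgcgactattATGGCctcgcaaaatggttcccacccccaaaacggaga
Ubx intron (3R:16715658-16715758): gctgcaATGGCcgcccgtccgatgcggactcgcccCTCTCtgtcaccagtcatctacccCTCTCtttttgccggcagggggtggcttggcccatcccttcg
bxd intron (3R:16764151-16764251): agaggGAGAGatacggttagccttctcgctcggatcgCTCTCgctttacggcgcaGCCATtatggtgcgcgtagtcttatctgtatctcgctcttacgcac
iab8 intron (3R:16869465-16869565): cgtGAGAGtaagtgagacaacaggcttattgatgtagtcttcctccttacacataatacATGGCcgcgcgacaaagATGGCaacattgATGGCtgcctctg
Antp intron (3R:6936237-6936337): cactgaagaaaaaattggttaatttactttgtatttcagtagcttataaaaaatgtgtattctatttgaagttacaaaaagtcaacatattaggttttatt
bcd promoter (3R:6759516-6759616): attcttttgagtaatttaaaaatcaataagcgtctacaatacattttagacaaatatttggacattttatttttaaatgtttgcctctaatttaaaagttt

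Peaks were dense in both clusters and mostly lay away from promoters. The Bithorax complex held 107.3 peaks per Mb (interval 75.1 to 148.5) and the Antennapedia complex 64.3 per Mb (40.7 to 96.5), while the rest of arm 3R held 27.8 per Mb (25.9 to 29.7). Over both clusters the density was 3.07 times that of the rest of the arm in the conservative list, 2.96 times in the pooled list, 3.33 times in the list of replicate 1 and 2.61 times in the list of replicate 2. Of whole 10 kb tiles, 23 of 33 in the Bithorax complex (69.7%) and 15 of 34 in the Antennapedia complex (44.1%) held a summit, against 21.1% of the tiles over all arms. Stretches of the length of the Bithorax complex were also laid end to end along the arms, with the Hox complexes not left out. Of 393 such stretches, 2 held 36 or more summits and the median was 10. For the length of the Antennapedia complex, 25 of 367 stretches held 23 or more, with a median of 11.

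**Figure D1:**
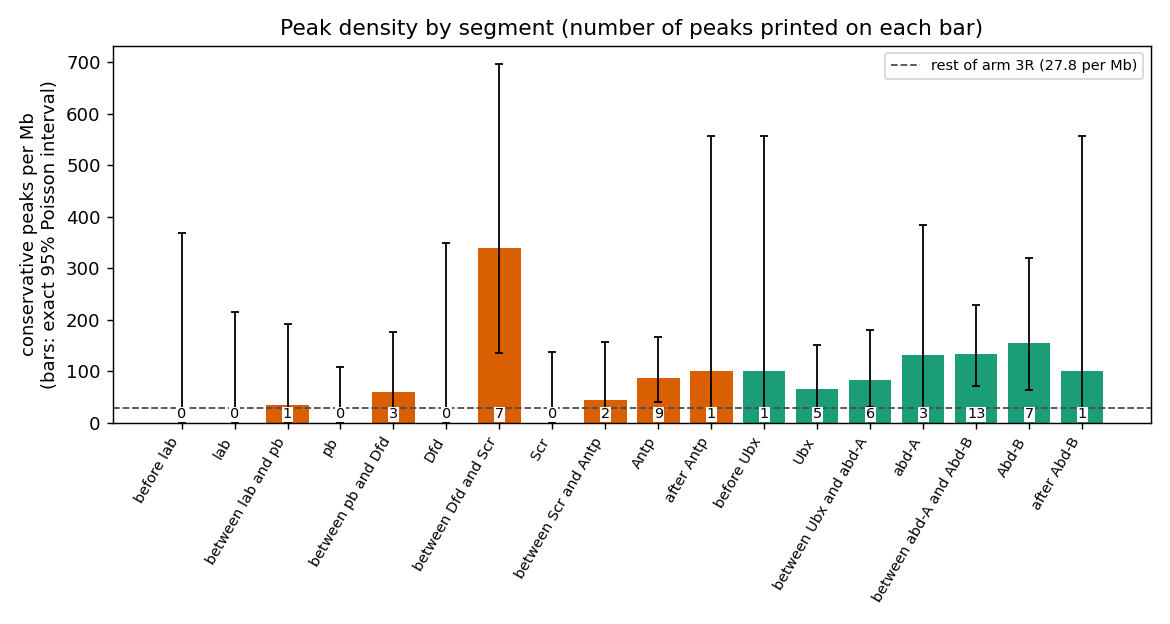
Conservative peaks per Mb (vertical axis) in each Hox gene, each interval between genes and each 10 kb flank (horizontal axis), for the Antennapedia complex in orange and the Bithorax complex in green. Lines are exact 95% Poisson intervals, the dashed line is the rest of arm 3R at 27.8 per Mb, and the number of peaks stands on each bar; the stretch between Dfd and Scr is the highest bar at 338.3 per Mb, and lab, pb, Dfd and Scr hold 0.

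By position, 36 of the 59 members were in introns, of Hox genes or of other genes (61.0%, interval 47.4 to 73.5), against 37.6% of all conservative peaks. The share of the complexes' own sequence in each class was not measured, so the layout of these loci is not allowed for. Promoters, meaning within 500 bp of a transcription start site (TSS), held 14 (23.7%, interval 13.6 to 36.6), against 44.6% of all peaks. Of these 14, 5 were at Hox genes and 9 at other genes of the clusters. Another 7 members were intergenic (11.9%, against 14.8% of all peaks) and 2 lay in noncoding exons (3.39%, against 1.15%). None lay in a coding exon or an untranslated region. These classes were rare in the whole list too, with 34 of 4099 peaks in coding exons, 21 in 5' and 22 in 3' untranslated regions. Hox genes themselves contained 24 members and the other 35 lay outside them.

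At Hox promoters, 4 of 8 genes had a conservative peak, against 13.8% of all protein-coding genes. Some Hox genes have several TSSs, and with only the most upstream TSS of each gene it was 3 of 8, against 11.4%. Dfd, which specifies the mandibular and maxillary segments of the head, had the strongest member peak of all (3R:6791458-6791747, summit 235 bp upstream of the TSS). In the conservative list this peak stood at 463 and ranked 150, and the libraries gave 297 (replicate 1) and 172 (replicate 2). Abd-B, which specifies the posterior abdomen, had a peak 123 bp upstream of an internal TSS (3R:16960209-16960598) at 189.5, from 139.9 and 56.2 in replicates 1 and 2. Scr, which acts in the labial segment and the prothorax, had one 115 bp upstream of its distal TSS (3R:6849901-6850290) at 165, from 117.8 and 43.8 in replicates 1 and 2. The peak of lab, a gene of the head and the midgut, lay 108 bp upstream of its distal TSS (3R:6678503-6678892) at 149, from 108 and 37.6. Replicate 1 gave the higher value at each of these 4 promoters, and the thresholded list of replicate 2 held those of Dfd and Abd-B but not those of Scr and lab.

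The remaining Hox promoters were lower or outside the conservative list. In the pooled list 6 of 8 genes had a promoter peak (17.3% of all protein-coding genes), in the list of replicate 1 also 6 of 8 (14.3%) and in that of replicate 2 there were 2 of 8 (10.1%). The pooled list added abd-A, which specifies the middle abdomen, at 105.1 (201 bp upstream, 74.6 in replicate 1 and 25.7 in replicate 2), and pb, a gene of the mouthparts, at 72.9 (47 bp upstream, 52.2 and 18.8). In the ranking behind the conservative list these had an irreproducible discovery rate (IDR, the expected share of irreproducible peaks) of 0.0184 and 0.198, above the authors' limit of 0.01. The conservative list also left out a peak 240 bp upstream of the downstream TSS of Scr, at 80.8 in the pooled list and an IDR of 0.0188.

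Among the Hox genes, only Ubx and Antp had no promoter peak in any of the 4 thresholded lists. For Ubx the difference from pb was narrow, since the pb candidate had an IDR of 0.198, with 52.2 in replicate 1 and 18.8 in replicate 2. At Ubx, which distinguishes the halteres from the wings, the best ranked candidate within 500 bp of the TSS stood at 56.0 (replicate 1 at 43.2, replicate 2 at 18.6) and an IDR of 0.185, and the nearest conservative summit was 15824 bp away. At the 3 TSSs of Antp, a gene of thoracic identity, the candidates had signals of 62.1, 38.4 and 31.4 and IDRs of 0.637, 0.371 and 0.614. The conservative summit nearest an Antp TSS lay 1535 bp upstream of the most distal one (147.8, with 89.6 in replicate 1 and 46.7 in replicate 2), inside and 271 bp downstream of the start of the noncoding gene lncRNA:CR45899. Abd-B has 6 annotated TSSs, and besides the internal one only that at 16934242 had a conservative peak within 500 bp, with a signal of 13.6 and replicate signals of 74.7 and 50.9. The pooled list has a peak of 83.8 there, 140 bp upstream, and the list of replicate 1 one of 74.7. A summit of 73.1 lay 511 bp upstream of the most distal TSS. At the start sites of Ubx and Antp, and at the Abd-B start sites without a peak, none was detectable at the authors' threshold. This does not show that binding was absent.

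**Figure D2:**
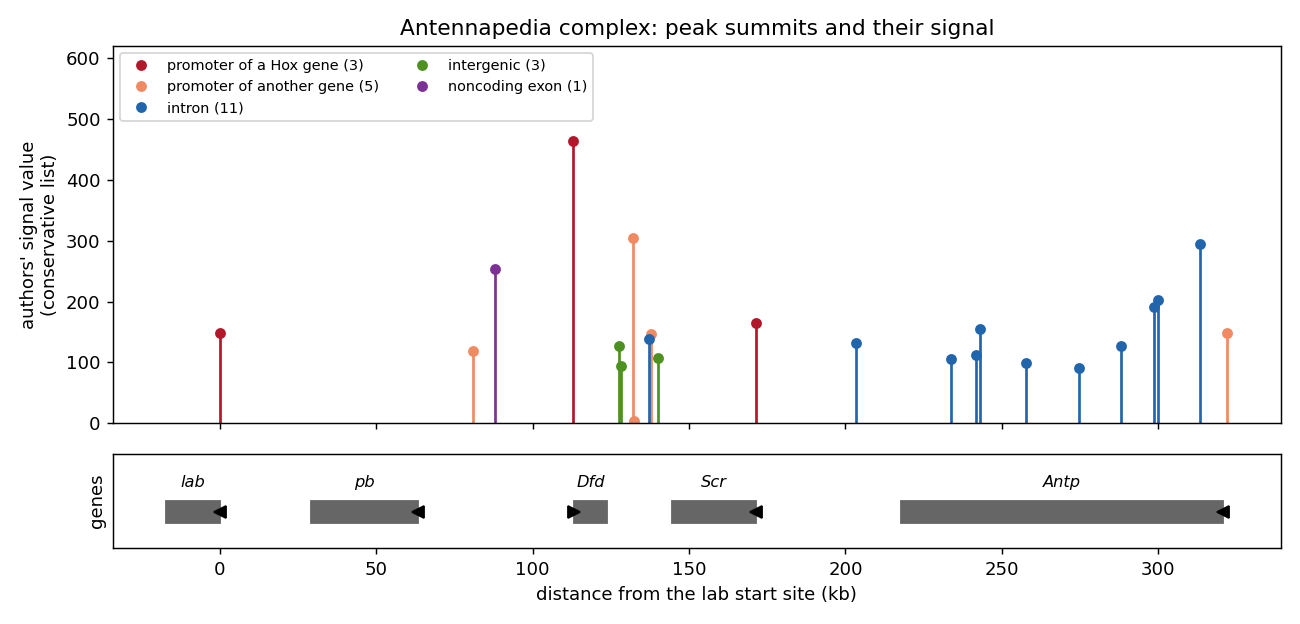
Summits of the 23 conservative peaks of the Antennapedia complex by distance in kb from the distal lab TSS (horizontal axis) and the authors' signal value (vertical axis), coloured by position class, with Hox genes below as boxes and arrowheads at their starts in the direction of transcription. The Dfd promoter is the highest point at 463, the stretch from lab to bcd is empty over 80.9 kb, and 9 summits lie inside Antp.

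Along the Antennapedia complex the peaks fell into a few stretches. The genes lab, pb, Dfd and Scr held no conservative summit inside their transcribed length, and no member lay in the 80.9 kb between the lab promoter and bcd, a stretch that includes pb. The maternal anterior gene bcd, derived from an ancestral Hox gene, had a promoter peak at 118.8 (100 bp upstream, 66.6 in replicate 1 and 48.8 in replicate 2). A peak of 253 lay in an exon of lncRNA:CR44930 (3R:6766218-6766607), with 164.4 and 80.5 in replicates 1 and 2. Between Dfd and Scr, 20.7 kb held 7 peaks, which is 338.3 per Mb (interval 136 to 697). Of these, 3 were inside lncRNA:CR42651, and the strongest, at 304 (3R:6810758-6810981, rank 362), lay 11 bp downstream of the start of lncRNA:CR45915 with 192.9 in replicate 1 and 109.8 in replicate 2. Its neighbour 207 bp away has a signal of 4.21 and is assigned the same replicate entries, so that the pair is best read as 1 peak. The other promoter peak of this stretch was at lncRNA:CR42651 (147.1, summit 80 bp upstream). A peak of 132.6 lay in an intron of lncRNA:CR44931, between Scr and Antp.

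Antp, a gene of 103 kb, contained 9 summits, the most of the 8 Hox genes, and all were in introns. Their signals ran from 90.6 to 295 with a median of 127.2, and 5 of them also lay inside the overlapping gene CG46458. The strongest (3R:6991994-6992184) was at 295, from 182 in replicate 1 and 108.7 in replicate 2, 7119 bp downstream of the most distal TSS. A neighbouring pair 1292 bp apart stood at 190.8 and 202.7. The list of replicate 1 held 7 of the 9 and that of replicate 2 held 5, against 73.6% and 59.7% of all conservative peaks. The summit at 6936287 was the only member where replicate 2 alone held the peak, with 42.7 in replicate 1 and 52.8 in replicate 2.

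**Figure D3:**
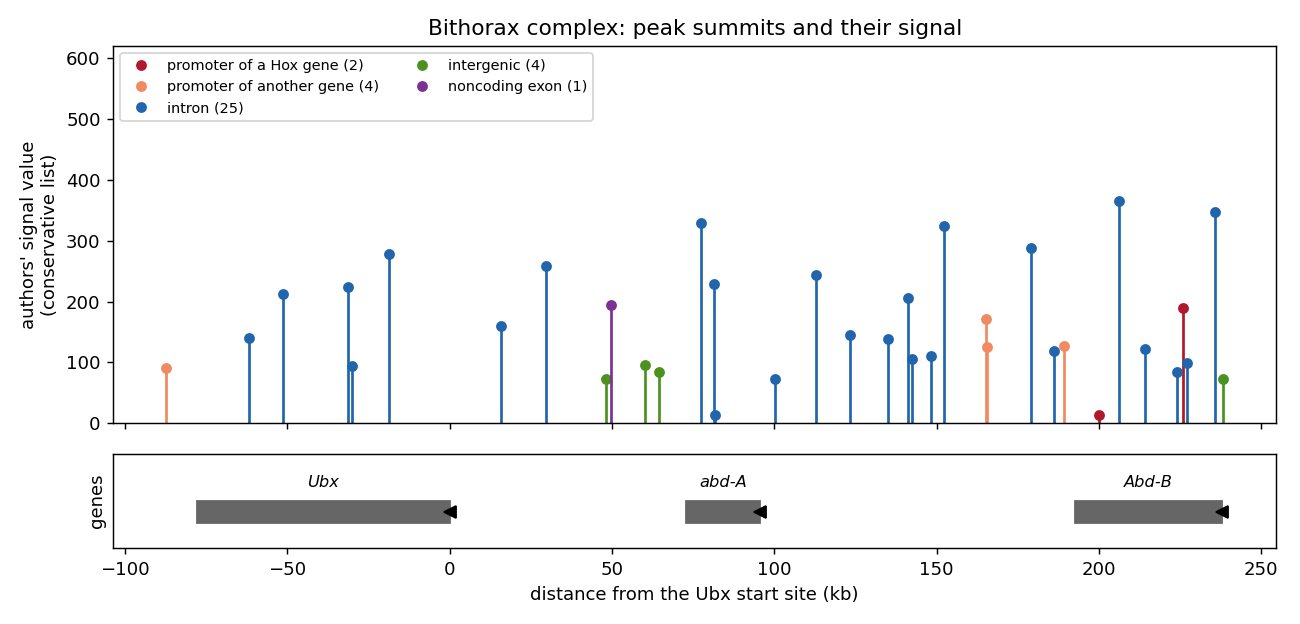
Summits of the 36 conservative peaks of the Bithorax complex by distance in kb from the Ubx TSS (horizontal axis) and the authors' signal value (vertical axis), coloured by position class, with Hox genes below as boxes and arrowheads at their starts in the direction of transcription. Peaks over 200 occur in each of the 3 genes and in both intervals between them, and the longest empty stretch, 34.5 kb, spans the Ubx start at 0.

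The Bithorax complex had peaks in each gene and in each interval between genes. The Ubx gene held 5 intronic summits at 94.2 to 278, led by 3R:16715655-16715781 (278, with 196 in replicate 1 and 80.8 in replicate 2, 18718 bp downstream of the TSS). The list of replicate 1 held all 5 of these and that of replicate 2 held 2, against 73.6% and 59.7% of all conservative peaks. Upstream of Ubx, in the noncoding RNA gene bxd that lies in the Ubx regulatory region, were 2 intronic peaks of 160 and 259, both in the lists of each replicate. The stronger (3R:16764006-16764395) had 167.9 in replicate 1 and 80.7 in replicate 2. The longest stretch without a conservative summit in this complex, 34.5 kb, ran from the Ubx intron over the Ubx TSS to bxd. A peak of 194.1 (135 and 51.4 in replicates 1 and 2) lay in an exon of lncRNA:CR44945. At the far side of Ubx, in the flank, a peak of 90.8 lay at the promoters of CG10324 and of CCT3, which encodes a chaperonin subunit.

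In abd-A, 3 summits lay in introns, at 329, 229 and 14.1. The strongest (3R:16811825-16811987, rank 310) had 205.7 in replicate 1 and 108.6 in replicate 2, and the next (3R:16815824-16815930) had 159.8 and 71.5. The weak one is 199 bp from the latter and carries the same replicate entries. Between abd-A and Abd-B, 97.2 kb held 13 peaks, 133.8 per Mb (interval 71.2 to 228.8). Of these, 12 lay inside the noncoding RNA gene iab8, the source of the microRNA mir-iab-8, and 1 within 500 bp upstream of one of its starts. They had signals from 73.5 to 323, and 8 of them also lay inside MSAmiP, a gene that overlaps iab8. The strongest (3R:16886565-16886791) had 194.5 in replicate 1 and 132.6 in replicate 2, and another (3R:16913575-16913756, signal 287) had 220.5 and 62.4. A touching pair at a start of iab8 had signals of 171.5 and 126.1. No member summit lay inside a microRNA gene.

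Abd-B held 7 summits in 45 kb, which is 155.5 per Mb (interval 62.5 to 320). Its strongest intronic peaks were 3R:16940616-16940835 at 365 (251.6 in replicate 1 and 109.7 in replicate 2, rank 242) and 3R:16970194-16970423 at 348 (233.4 and 96.8, rank 270). These were the strongest members after the Dfd promoter, and both stood well above the Abd-B promoter peak at 189.5. The other intronic peaks were lower, at 85.1, 99.9 and 122.1.

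Members were somewhat stronger than peaks in general. Their median signal was 139 in both complexes, against 117.1 over all conservative peaks, and 20 of 59 (33.9%) were among the upper 25% of the list. In the list of replicate 2 the order was the other way, with a median of 61.5 for its 33 members against 69.6 for all its peaks, while in that of replicate 1 it was 87.2 against 69.5. The highest rank of a member was 150, that of the Dfd promoter.

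The replicates did not contribute evenly. The list of replicate 1 overlapped 51 of 59 members (86.4%, against 73.6% of all conservative peaks) and that of replicate 2 overlapped 32 (54.2%, against 59.7%). Both lists held 31 members (52.5%, against 49.8% of all conservative peaks), replicate 1 alone 20, replicate 2 alone 1, and neither 7. Over all 4099 peaks on the arms, replicate 1 alone held 974, replicate 2 alone 404, and neither 679. The median log2 ratio of the signal in replicate 1 to that in replicate 2 was 0.89 over members, from -0.31 to 1.88, and 0.21 over all conservative peaks. It was 0.81 in the Antennapedia and 0.92 in the Bithorax complex. The ratio moved with base composition over the whole list: among peaks that are not members it was 0.08 where the 101 bp window had under 45% G and C, 0.60 at 45 to 58% and 0.75 above that. The members' ratios were 0.72, 0.94 and 1.23 in the same classes, each higher than that of the other peaks. The libraries' part in this was not tested, and no rescaling between them is stated in the deposited files.

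**Figure D4:**
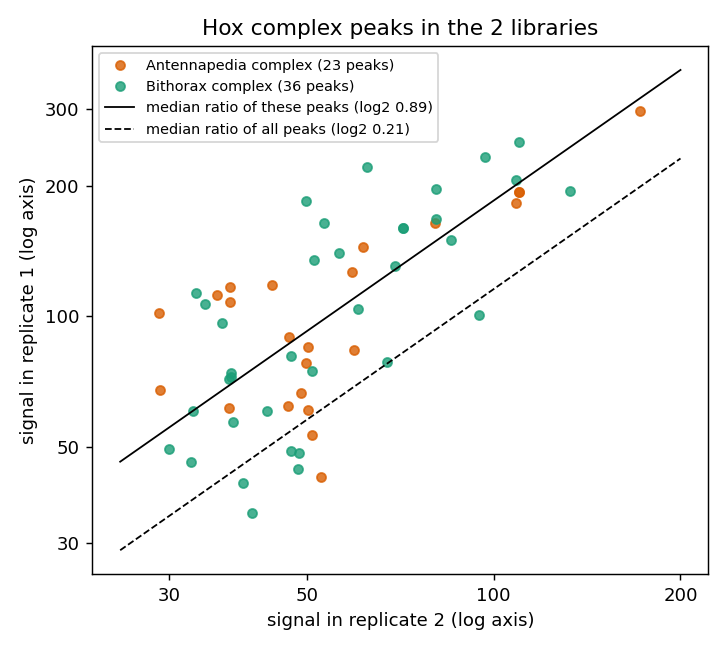
Signal of each of the 59 member peaks in replicate 1 (vertical, log axis) against replicate 2 (horizontal, log axis), with the Antennapedia complex in orange and the Bithorax complex in green; 2 pairs of touching peaks share their entries and coincide. The solid line is the members' median ratio (log2 0.89) and the dashed line that of all conservative peaks (log2 0.21); most points lie above the dashed line.

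The sequence around the summits set the Hox complex peaks apart from other Sequoia peaks most clearly by GCCAT. Within 50 bp of the summit, 34 of 59 members held GCCAT on either strand (57.6%, interval 44.1 to 70.4), against 626 of 4099 conservative peaks (15.3%). The share was 25 of 36 in the Bithorax complex (69.4%) and 9 of 23 in the Antennapedia complex (39.1%). Consecutive windows of the same length across both complexes held it in 22.9%, and across arm 3R in 20.2%. Windows across the Bithorax complex held it in 25.8%, below the interval of its members (51.9 to 83.7). Those across the Antennapedia complex held it in 20.2%, within the wide interval of its members (19.7 to 61.5). These windows were not matched to the members for base composition. GCCAT occurred up to 4 times in a member window, as in the abd-A intron at 3R:16811851-16811951 printed above, and 10 members held it more than once. Of the 20 strongest members, 17 held GCCAT. Repeated matches and the strongest peaks were not counted over the whole list, so these last counts describe members only.

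All 5 Hox promoter peaks, the weak one at Abd-B included, held GAGAG (interval 47.8% to 100%), against 17.3% of all conservative promoter peaks. That 17.3% is not matched for base composition. Among other conservative peaks of any position with 45 to 58% G and C, the share was 31.0%. A difference from promoter peaks of like base composition was not tested. Of the 5 Hox promoter peaks, 1 held GCCAT, at Dfd. The interval for this share, 0.505% to 71.6%, is too wide to set Hox promoters apart from the other members. Among members outside promoters, 29 of 45 held GCCAT (64.4%, against 16% of all peaks outside promoters) and 14 of 45 held GAGAG (31.1%, against 15.2%). With 45 to 58% G and C, the share with GAGAG outside promoters was 27.3% of members and 27.8% of other peaks. Inside genes, GCCAT was in 9 of 12 windows in iab8, 5 of 9 in Antp, 4 of 5 in Ubx, 4 of 7 in Abd-B, 3 of 3 in abd-A and 2 of 2 in bxd. Over all members GAGAG was in 24 of 59 (40.7%, interval 28.1 to 54.3), against 16.2% of all conservative peaks and 12.8% of windows across the complexes. Either motif was in 44 members, both in 14 and neither in 15, which was not counted over all peaks.

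Base composition differed as well. The median share of G and C in the 101 bp was 53.5% in members, against 35.6% in all conservative peaks and 42.6% in windows across the complexes. Among peaks with 45 to 58% G and C, GCCAT was in 19 of 29 members (65.5%, interval 45.7 to 82.1) and in 203 of 902 other peaks (22.5%, interval 19.8 to 25.4). GAGAG was in 11 of 29 members (37.9%, interval 20.7 to 57.7) and in 31.0% of the others, so that for GAGAG the difference was within the interval at like base composition. Of all 512 words of 5 bases, with each merged with its reverse complement, GCCAT had the largest excess in members both over all other peaks and over others of this composition, while GAGAG came at places 6 and 32.

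**Figure D5:**
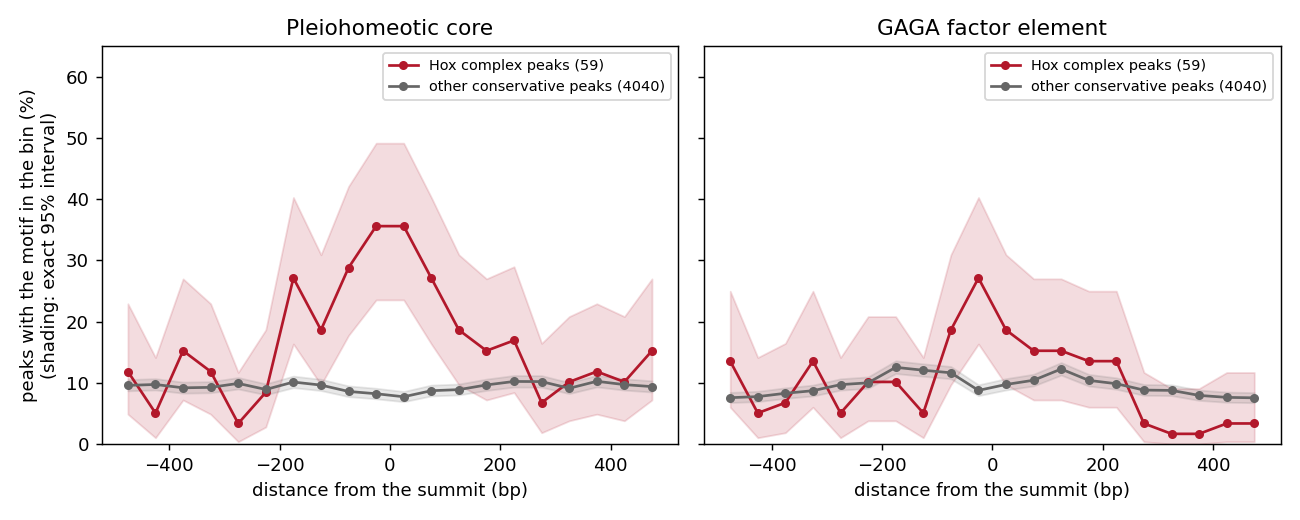
Share of peaks with GCCAT (left, the Pleiohomeotic core) and GAGAG (right, the GAGA factor element) on either strand in 50 bp bins by distance from the summit (horizontal axis, bp), for the 59 Hox complex peaks in red and 4040 other conservative peaks in grey, with exact 95% intervals as shading. GCCAT reaches 35.6% of members in each of the bins beside the summit and falls toward the edges, while the grey line stays near 10%.

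The other 8 motifs sought were rare in members. TAATTA, a core of homeodomain sites and its own reverse complement, was in 2 of 59 windows (3.39%, against 8.20% of all peaks), and TGATNNAT, a form of the joint site of Hox proteins and Extradenticle, was in 1 (1.69%, against 6.93%). At 45 to 58% G and C both were rare in other peaks too (1.66% and 2.00%) and in 0 of 29 members (interval up to 11.9%), and in whole peaks TGATNNAT was in 18.6% of members and 19.7% of all peaks, so no shortfall in members can be read from these values. CAGGTA, the core bound by Zelda, was in 3 (5.08%, against 1.98%), and the E-boxes CAGGTG and CAGCTG were in 1 and 2 (1.69% against 2.44% and 3.39% against 3.73%). CAGGTA and CAGGTG share CAGGT, and CAGCTG is its own reverse complement. The GATA factor site, sought as AGATAA, was in 3 (5.08%, against 7.76%). The word ACAGTG, known from earlier results of these data, was also in 3 (5.08%, against 7.25%). AGGTGGC, a core of CTCF sites that can overlap CAGGTG, was in 0 of 59, an interval up to 6.06%, against 0.903% of all peaks. Each was sought on both strands, a match describes these letters only, and GCCAT and GAGAG were put first after the values of all 10 had been seen.

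A list of 20 genes took in Hox cofactors, zinc finger partners, described Hox targets and genes derived from the ancestral Hox3 gene. Promoter peaks were found at 8 of them, against 13.8% of all protein-coding genes. Among described targets there were 6 of 11, led by fkh, a salivary gland regulator under Scr (442, with 287.4 in replicate 1 and 153.4 in replicate 2). Dll, which starts leg development and is repressed by abdominal Hox proteins, was at 413 (279.1 and 127.1), svp, which encodes a nuclear receptor, at 335 (260.7 and 77.0) and ap, which acts in wing and neurons, at 231.9 (170.6 and 54.3). The cell death gene rpr was at 152.6 (88.6 and 61.0), and the target bs also had one. Replicate 1 gave the higher signal at each of these 5 genes. Of the genes derived from the ancestral Hox3 gene 1 of 3 had a peak (bcd), and of 4 zinc finger partner genes 1 did (disco). The bcd peak was already counted among the members of the Antennapedia complex. Neither Hox cofactor gene, exd or hth, had a promoter peak, although hth, singled out after its values were seen, held 5 conservative peaks inside the gene with signals up to 218.8.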

How the data were processed

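Sequoia-eGFP ChIP-seq peaks of 2 embryo libraries (biological replicates 1 and 2, per the labels) were used as deposited. The authors deposited thresholded and ranked lists on dm6 for each replicate, for pooled replicates and for a conservative set. Aligner, peak caller and versions are not given in the sources used here, and the control library was not analysed here. The signal is the value deposited by the authors from their peak caller, and no rescaling between libraries is stated. The authors' score rises as the IDR falls and was at least 830 in the thresholded lists. The ranked lists deposited by the authors hold the -log10 of the IDR, capped at 5; the lowest in a thresholded list was 2, an IDR of 0.01. Depth is unknown.

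Summits were placed on the Ensembl BDGP6.54 annotation (release 115), and a promoter reached 500 bp either side of any TSS. Replicate signals were read from each replicate's ranked list at the interval that the conservative ranking records; its own columns of replicate signal, and those of the pooled ranking, 4 in all, were not used. Overlap needed 1 bp. Motifs were sought in 101 bp, without p-values, since there is no contrast. The members, lists and motifs were chosen with earlier results of these data known. Base composition classes, windows across the complexes, stretches of equal length, distances of motifs from summits and 5-base words were chosen after seeing the data. Genes named are the 8 Hox genes, other genes of the complexes with a peak, the 10 strongest members with coordinates and listed partner genes with a promoter peak, of which the 5 strongest have values; other members are described where a sentence needs them. The listed target con was matched as Con. Counting steps were tested on simulated data. Alternatives were other lists, thresholds, flanks, windows and overlap rules. Tables were handled with pandas 2.3.3 and numpy 2.4.6 in Python 3.11.15, intervals came from scipy 1.17.1, and plots from matplotlib 3.10.9.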

Additional observations from a re-analysis of the deposited data

How the results depend on the processing

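No paired analysis was possible because the 2 libraries form 1 group. With either replicate left out, by using the other's own list, members numbered 33 to 64 (main 59), with 15 to 30 in the Antennapedia and 18 to 34 in the Bithorax complex, 41.9 to 83.8 and 53.6 to 101.3 per Mb, and Hox genes with a promoter peak 2 to 6 (main 4). The lower value was always that of the list of replicate 2. At an IDR of 0.001 there remained 32 members (12 and 20, or 33.5 and 59.6 per Mb), 1.66% of the 1928 peaks left and 3.68 times the density on the rest of arm 3R. Wider windows raised GCCAT to 74.6% of members within 100 bp (29.2% of all peaks) and 88.1% in whole peaks (48.6%), and GAGAG in whole peaks to 57.6% (47.8%), since longer windows hold more matches. In another 58 comparisons of these results and of position classes, signal ranks, replicate ratios and partner genes, among them other flanks, TSS windows, overlap rules and, added after seeing the data, the omission of peaks with a signal under 30 and the merging of touching ones (56 each), shares and densities stayed within the main value's interval, medians within 1 SD over members and counts within 1.5 times. For ranks that SD is a wide limit, and staying within it does not show a stable median. The median member stood 38.4% down the conservative list but 61.6% down the list of replicate 2. Of 28 further comparisons, of the 8 rarer motifs and of overlap with the replicates' lists, 8 left that range: TGATNNAT (18.6%), CAGCTG (23.7%) and ACAGTG (22.0%) in whole peaks, CAGCTG (11.9%) and ACAGTG (16.9%) within 100 bp, and TAATTA, TGATNNAT and CAGGTG at 45 to 58% G and C (0% each).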

Other observations

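Past the Abd-B end of the Bithorax complex, 2 strong peaks lay just outside the 10 kb flank and were not counted as members. Their summits were at 3R:16983227 (signal 337.7), 991 bp beyond the limit, and at 3R:16986646 (signal 393), 4410 bp beyond it. On the other side of the complex the next summit was 122386 bp before the limit, with a signal of 126.5. Next to the Antennapedia complex the nearest summits outside were 2002 bp past the limit on the Antp side (87.2) and 223353 bp before it on the lab side (32.9). Of the 15 pooled peaks that no conservative peak overlapped, the strongest lay between lab and pb (3R:6683151-6683540, signal 105.1). Replicate 1's list held 12 such peaks and that of replicate 2 held 1.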
